A study of Mus musculus with 12 samples.

Results

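The 10 genes described here encode costimulatory and coinhibitory surface proteins of dendritic cells (DC), together with the maturation markers CD83 and fascin. They are Cd40, Cd80, Cd86, Cd83, Cd200, Cd274, Pdcd1lg2, Icosl, Btla and Fscn1, taken by symbol from 18193 genes that had a probe set annotated with a single symbol. Each was read by the probe set with the highest mean over 12 arrays, and the others of their 20 probe sets served as a check. All 10 were among the 10929 genes that passed a filter on low signals. DC were sorted as 4 populations from the lungs of C57BL/6J male mice aged 8 to 12 weeks, 16 h after 100 ng of lipopolysaccharide, a bacterial cell wall component, and 100 ug of ovalbumin, a foreign protein, in 50 ul of buffer had been given to the airway. Conventional DC (cDC) were taken as CD103+ cells and as CD11bhi CD14lo cells, here CD103+ cDC and CD14lo cDC. Monocyte-derived DC (moDC) were taken as CD11bhi CD14hi cells and as CD11bhi Ly6Chi cells, which the labels call inf.moDCs, here CD14hi moDC and Ly6Chi moDC. Where values of all populations are listed, they stand in that order. Each had 3 biological replicates of 20 pooled mice, a sort purity above 93% by the labels and 1 array per replicate, and this number of arrays limits the precision. All mice had received both agents, so no value compares exposed with unexposed cells.

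A DC must do more than show antigen to a T cell. It also carries ligands that let the T cell respond, such as CD80 and CD86 for CD28 and ICOS ligand for ICOS, and ligands that restrain it, such as PD-L1 (Cd274) and PD-L2 (Pdcd1lg2) for PD-1. CD40 receives the signal of CD40 ligand on helper T cells, CD200 restrains myeloid cells that bear its receptor, and BTLA is an inhibitory receptor that binds HVEM. Bacterial products raise many of these genes together when a DC matures, along with CD83 and the actin bundling protein fascin (Fscn1), which accompanies dendrite formation and migration.

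In every gene of the 10 the highest mean was in CD103+ cDC, and in 9 of them the lowest was in Ly6Chi moDC; Cd80 was lowest in CD14hi moDC. Among all genes tested, 33.7% had their highest mean in CD103+ cDC and 30.6% their lowest in Ly6Chi moDC. The mean log2 levels were fitted with limma, and a difference was called at an adjusted p under 0.05 over the 10929 genes. All 10 differed somewhere among the 4 populations by limma's F test, as did 51.1% of all genes. CD103+ cDC were higher than Ly6Chi moDC in 10 of 10, against 23.2% of all genes called higher there and 47.5% called in either direction. They were higher than CD14hi moDC in 9 (16.9% of all genes higher, 37.2% either way) and higher than CD14lo cDC in 7 (13.4% higher, 28.7% either way). Against Ly6Chi moDC, 8 were higher in CD14lo cDC (14% of all genes higher, 25.2% either way) and 7 in CD14hi moDC (11.4% higher, 18.2% either way). Between CD14lo cDC and CD14hi moDC only Btla was called, 1 of 10, where 6.95% of all genes were called higher in CD14lo cDC and 16.2% in either direction, shares near that of the members. The arrays of CD103+ cDC did not overlap with those of CD14lo cDC in 10 of the 10 genes (39.2% of all genes), of CD14hi moDC in 8 (45.8%) and of Ly6Chi moDC in 10 (53.3%). Those of Ly6Chi moDC did not overlap with CD14lo cDC in 9 (39.5%) and with CD14hi moDC in 7 (36%). No member was called lower in the first population of any of these 6 pairs. The median log2 difference of the 10 genes, with the median of all genes tested beside it, was 1.73 (-0.02) for CD103+ cDC against Ly6Chi moDC, 0.96 (-0.01) against CD14hi moDC and 0.82 (-0.03) against CD14lo cDC. It was 0.90 (0.01) for CD14lo cDC and 0.75 (0.01) for CD14hi moDC, both against Ly6Chi moDC, and 0.06 (0.01) between CD14lo cDC and CD14hi moDC. With each array centred at its median signal, where the median of all genes moved to -0.21 for CD14hi moDC against Ly6Chi moDC and to -0.11 for CD14lo cDC against Ly6Chi moDC, 4 and 5 of the 10 genes were called there in place of 7 and 8. That centring also turned the balance of all calls between the monocyte-derived populations, from 62.6% higher in CD14hi moDC to 31%. The share of calls higher in CD14lo cDC went from 55.5% to 41% against Ly6Chi moDC and from 42.9% to 54.4% against CD14hi moDC. The share higher in CD103+ cDC went from 45.5% to 54.8% against CD14hi moDC and from 48.8% to 39.2% against Ly6Chi moDC, where the median of all genes moved to -0.14. No called gene of the 10 changed its direction under it or under quantile normalization.

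**Figure D1:**
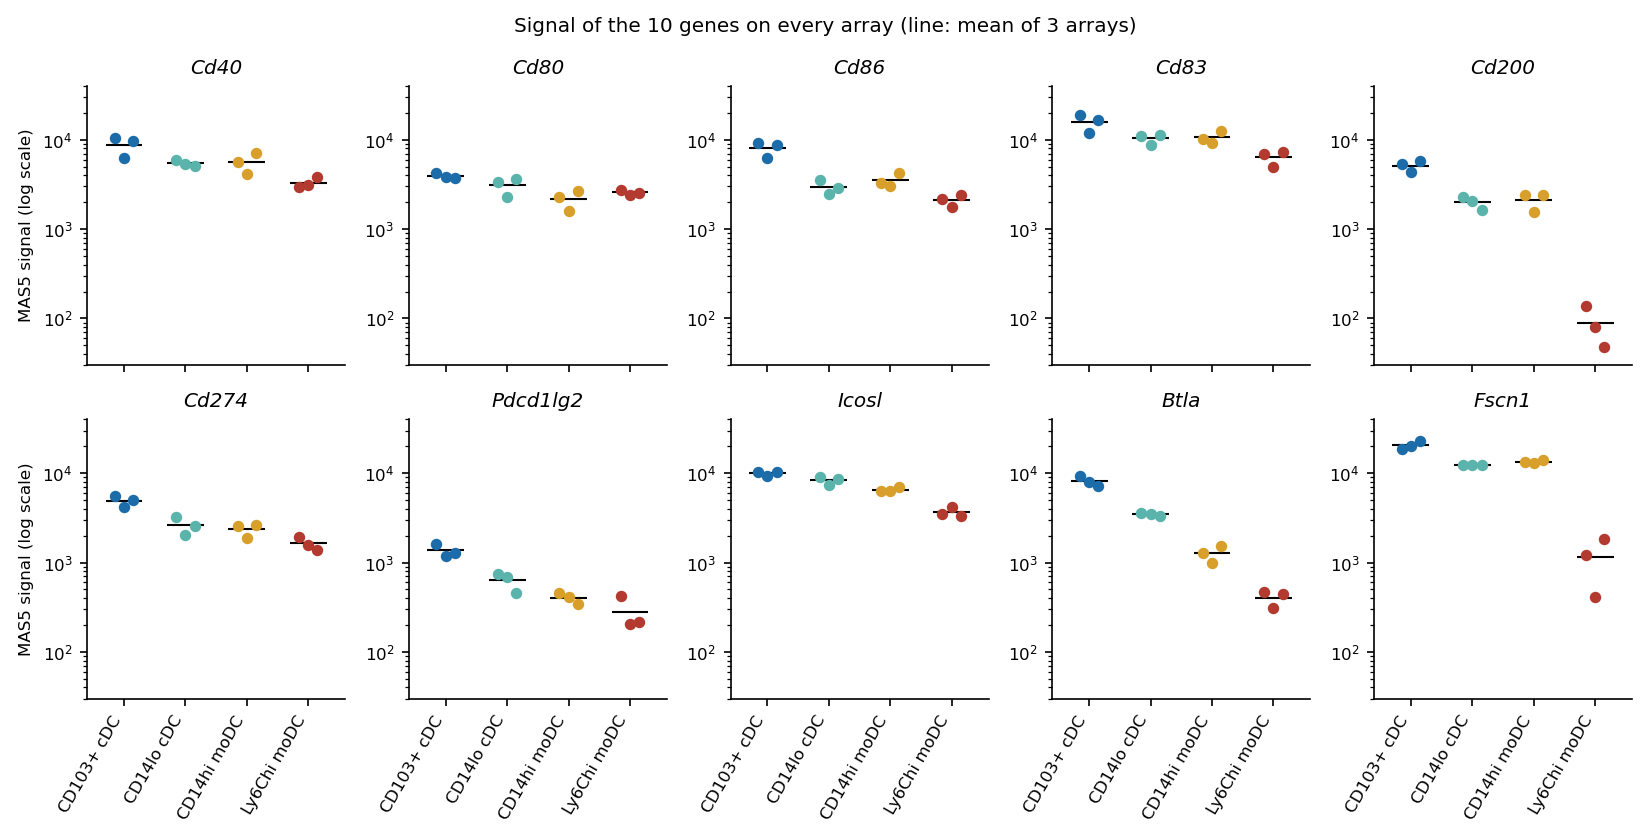
MAS5 signal (arbitrary units, log scale) of the 10 genes on each of 12 arrays, with 3 points per population and a line at their mean. Cd200 and Fscn1 drop in Ly6Chi moDC, to means of 88.3 and 1149, Btla falls at each step from CD103+ cDC (8122) to Ly6Chi moDC (405), and Cd80 spans the narrowest range.

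The 3 genes with the widest range between populations were Cd200, Fscn1 and Btla, and their upstream sequences are shown with that of Pdcd1lg2, the only member searched whose window held a match to the NF-kappaB consensus. Of the 10 genes, 7 were found in the RefSeq promoter table (GRCm38.p6), and Cd40, Cd83 and Cd86 were not. The 250 bases before the annotated start are given 5′ to 3′ on the gene's strand, with motif matches in capitals.
Fscn1, chr5:142960105-142960354, plus strand: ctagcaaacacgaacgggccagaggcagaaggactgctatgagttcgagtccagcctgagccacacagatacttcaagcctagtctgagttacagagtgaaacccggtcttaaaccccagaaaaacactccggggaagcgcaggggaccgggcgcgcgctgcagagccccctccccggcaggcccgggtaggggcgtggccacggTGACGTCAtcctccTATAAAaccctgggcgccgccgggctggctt
Cd200, chr16:45409054-45409303, minus strand: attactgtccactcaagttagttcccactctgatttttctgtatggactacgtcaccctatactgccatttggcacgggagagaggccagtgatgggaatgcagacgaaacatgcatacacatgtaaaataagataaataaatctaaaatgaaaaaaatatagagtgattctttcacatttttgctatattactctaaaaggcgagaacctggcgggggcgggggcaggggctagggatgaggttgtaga
Btla, chr16:45224087-45224336, plus strand: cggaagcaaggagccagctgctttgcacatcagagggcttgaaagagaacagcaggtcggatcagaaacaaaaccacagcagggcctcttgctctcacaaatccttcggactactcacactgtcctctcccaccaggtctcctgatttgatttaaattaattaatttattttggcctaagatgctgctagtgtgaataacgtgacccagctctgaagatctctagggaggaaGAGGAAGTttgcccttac
Pdcd1lg2, chr19:29410669-29410918, plus strand: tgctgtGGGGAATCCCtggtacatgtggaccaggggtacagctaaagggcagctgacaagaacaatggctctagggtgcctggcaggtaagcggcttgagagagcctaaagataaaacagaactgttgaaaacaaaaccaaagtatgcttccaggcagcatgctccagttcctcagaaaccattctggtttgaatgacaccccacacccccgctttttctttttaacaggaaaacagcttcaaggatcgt
Both strands of the 250 bases were searched for 6 motifs, picked with these sequences in view. A match to the NF-kappaB consensus was found in Pdcd1lg2, as in 3.9% of 32851 promoters. Fscn1 held the cyclic AMP response element TGACGTCA (1.55% of promoters) and a TATA box, TATAAA (12.4%). Btla held GAGGAAGT, a motif of the factor PU.1 (2.44%). Cd80 held the AP-1 motif TGANTCA (6.75%), and none of the 7 held the core of the interferon-stimulated response element (2.98%). The motifs share no letters in these windows, and Cd200 had no match. A match describes the letters of the window and is not a measured binding site.

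Cd40, which encodes the receptor for CD40 ligand, was strongest in CD103+ cDC, at 10471, 6273 and 9659 on the 3 arrays. The CD14lo cDC arrays had 5879, 5307 and 5147, the CD14hi moDC arrays 5703, 4117 and 7058, and the Ly6Chi moDC arrays 2926, 3134 and 3788. CD103+ cDC did not overlap with CD14lo cDC or Ly6Chi moDC, but the lowest CD103+ cDC array lay below the highest of CD14hi moDC. Cd40 was 2.61-fold higher in CD103+ cDC than in Ly6Chi moDC (log2 difference 1.38 ± 0.19, adjusted p = 9e-06), where ± is the SE of the fit over 3 arrays per population. It was 1.58-fold higher than in CD14lo cDC (adjusted p = 0.015) and 1.56-fold higher than in CD14hi moDC (adjusted p = 0.014). Leaving out CD103+ cDC replicate 1 or 3 ended the call against CD14lo cDC (adjusted p = 0.082 and 0.067), which was also lost without CD14lo cDC replicate 3 (0.055) and with either other probe set (0.053 and 0.39). The call against CD14hi moDC was lost without CD103+ cDC replicate 1 (0.076) or 3 (0.060), without CD14hi moDC replicate 2 (0.10) and with 1 of the other probe sets (0.67). With the mean of the probe sets both calls were lost (0.058 against CD14lo cDC and 0.069 against CD14hi moDC). Cd40 was also higher than in Ly6Chi moDC in CD14lo cDC (1.66-fold, adjusted p = 0.0087) and in CD14hi moDC (1.67-fold, adjusted p = 0.010). Median centring took these adjusted p to 0.059 and 0.099, and the latter call was lost without CD14hi moDC replicate 3 (0.068) or Ly6Chi moDC replicate 1 (0.052).

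CD28 on T cells is bound by the B7 proteins CD86 and CD80. Cd86 had 9121, 6245 and 8845 in CD103+ cDC and 3552, 2499 and 2883 in CD14lo cDC. In CD14hi moDC it had 3258, 3054 and 4301, and in Ly6Chi moDC 2196, 1773 and 2404. Every CD103+ cDC array was above all 9 others. Cd86 was 2.67-fold higher in CD103+ cDC than in CD14lo cDC (log2 difference 1.42 ± 0.18, adjusted p = 7.4e-06), 2.26-fold higher than in CD14hi moDC (adjusted p = 4e-05) and 3.71-fold higher than in Ly6Chi moDC (adjusted p = 6.2e-08). It was 1.64-fold higher in CD14hi moDC than in Ly6Chi moDC (adjusted p = 0.0078), a call lost with median centring (0.098) and without CD14hi moDC replicate 3 (0.052). CD14lo cDC and Ly6Chi moDC did not pass (log2 difference 0.47, adjusted p = 0.062, 95% interval 0.10 to 0.85), but did without CD103+ cDC replicate 2 (0.038), CD14lo cDC replicate 2 (0.036) or CD14hi moDC replicate 3 (0.050). They also passed with quantile normalization (0.034), with the replicate number as a block (0.017) and with only the 6 arrays compared (0.047). Both Cd86 probe sets gave the same 4 calls.

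Cd80 varied least among the 10 genes, with a span of 1.83-fold between its highest and lowest population. Its arrays had 4245, 3867 and 3767 in CD103+ cDC and 3392, 2303 and 3639 in CD14lo cDC. They had 2266, 1593 and 2700 in CD14hi moDC and 2773, 2424 and 2555 in Ly6Chi moDC. The values of the 3 CD11bhi populations overlapped, and CD103+ cDC lay above them. Cd80 was higher in CD103+ cDC than in CD14hi moDC (log2 difference 0.87 ± 0.18, adjusted p = 0.00097) and than in Ly6Chi moDC (1.52-fold, adjusted p = 0.011, but 0.056 with median centring). Against CD14lo cDC it was not called (log2 difference 0.37, adjusted p = 0.15), whereas 2 of its other 3 probe sets were (adjusted p = 0.044 and 0.015). The mean of its probe sets was called there too (adjusted p = 0.039). Between CD14lo cDC and CD14hi moDC the adjusted p was 0.073, and it was 0.013 without CD14lo cDC replicate 2 and 0.024 without CD14hi moDC replicate 3. In the order of Cd80 levels, CD103+ cDC and CD14lo cDC, CD14lo cDC and Ly6Chi moDC, and Ly6Chi moDC and CD14hi moDC were neighbours that did not pass the test. Which population was lowest depended on the probe set. In 2 of the other probe sets it was Ly6Chi moDC (951 against 1068 in CD14hi moDC, and 1382 against 1560). The dimmest had 419 in CD14hi moDC and 641 in Ly6Chi moDC.

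Icosl, the gene of ICOS ligand, had means in descending order over the populations. Its arrays had 10368, 9385 and 10321 in CD103+ cDC and 9020, 7403 and 8544 in CD14lo cDC. They had 6270, 6350 and 6990 in CD14hi moDC and 3485, 4239 and 3310 in Ly6Chi moDC. No population's arrays overlapped with those of another. Ly6Chi moDC were lower than CD103+ cDC by 2.72-fold (adjusted p = 1.9e-08), than CD14lo cDC by 2.25-fold (adjusted p = 9.2e-07) and than CD14hi moDC by 1.77-fold (adjusted p = 9.6e-05). The upper steps were smaller: the log2 difference was 0.27 ± 0.12 between the conventional populations (adjusted p = 0.12) and 0.34 ± 0.12 between CD14lo cDC and CD14hi moDC (adjusted p = 0.074). The latter passed with quantile normalization (0.0094) and median centring (0.049). A dimmer second probe set, with a mean of 174 over 12 arrays, fell in the same order, but its difference between CD14hi moDC and Ly6Chi moDC was not called (0.056).

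Cd83, which encodes a surface marker of mature DC, was the member most correlated with Cd40 over the arrays. Its arrays had 18792, 11975 and 16745 in CD103+ cDC and 10928, 8700 and 11423 in CD14lo cDC. They had 10241, 9308 and 12672 in CD14hi moDC and 6934, 4908 and 7372 in Ly6Chi moDC. Ly6Chi moDC lay below all other arrays. Cd83 was 2.46-fold higher in CD103+ cDC than in Ly6Chi moDC (log2 difference 1.30 ± 0.18, adjusted p = 8.8e-06). It was higher than in Ly6Chi moDC also in CD14lo cDC (1.62-fold, adjusted p = 0.0071) and CD14hi moDC (1.68-fold, adjusted p = 0.0060), although median centring took these to 0.062 and 0.082, and the former was lost without Ly6Chi moDC replicate 2 (0.053). CD103+ cDC were 1.51-fold above CD14lo cDC (adjusted p = 0.018) and 1.46-fold above CD14hi moDC (adjusted p = 0.023). The former call was lost with quantile normalization (0.13) or median centring (0.051) and without CD103+ cDC replicate 1 (0.097) or 3 (0.066) or CD14lo cDC replicate 2 (0.086). The latter was lost without an intensity trend (0.056) and without CD103+ cDC replicate 1 (0.12) or 3 (0.079) or CD14hi moDC replicate 1 (0.065) or 2 (0.11).

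A ratio of Gapdh signals, taken here as a guide to RNA quality, differed within CD103+ cDC in a way that moved with these values. Gapdh control probe sets at the 3′ end of the transcript read 3.26, 1.68 and 3.27 times those at its 5′ end on CD103+ cDC replicates 1 to 3, and 1.48 to 2.29 times on the other 9 arrays. In CD14lo cDC the ratios were 1.55, 2.29 and 1.72 and went with the values otherwise. Its replicate 2 was the lowest CD14lo cDC array for Cd80, Cd86, Cd83, Cd274 and Icosl. Replicate 3 was lowest for Cd40, Cd200, Pdcd1lg2 and Btla, and replicate 1 for Fscn1. Replicate 2 was the lowest CD103+ cDC array for 7 of the 10 genes, where it was lowest for 32.3% of all genes tested. With that array standing alone for its population, 3 of 10 genes in place of 7 were called against CD14lo cDC (Cd86, Cd200 and Btla), 7 in place of 9 against CD14hi moDC and 9 in place of 10 against Ly6Chi moDC. All genes called against CD14lo cDC went from 3141 to 1733 in that fit. With the Gapdh ratio as a covariate the Cd40 difference against CD14lo cDC was 0.38 (adjusted p = 0.21) in place of 0.66, and that of Cd83 was 0.38 (0.20) in place of 0.60. Against CD14hi moDC these were 0.30 (0.37) and 0.27 (0.40), while the other called members stayed called. The 2 highest ratios, 3.26 and 3.27, were both in CD103+ cDC, so the covariate partly coincides with that population and the fit cannot fully part them. The part of RNA quality in the differences was not tested beyond these fits.

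Among the coinhibitory ligands, Cd274, which encodes PD-L1, had 5619, 4134 and 4976 in CD103+ cDC and 3217, 2053 and 2542 in CD14lo cDC. It had 2552, 1891 and 2653 in CD14hi moDC and 1945, 1565 and 1398 in Ly6Chi moDC. The CD103+ cDC arrays stood above all others, and those of the CD14lo and CD14hi populations overlapped. Cd274 was 1.88-fold higher in CD103+ cDC than in CD14lo cDC (log2 difference 0.91 ± 0.18, adjusted p = 0.00088), 2.06-fold higher than in CD14hi moDC (adjusted p = 0.00017) and 2.95-fold higher than in Ly6Chi moDC (adjusted p = 1e-06). CD14lo cDC were 1.56-fold above Ly6Chi moDC (adjusted p = 0.014), a call lost with median centring (0.069), without CD14lo cDC replicate 1 (0.087) and without Ly6Chi moDC replicate 3 (0.070). CD14hi moDC against Ly6Chi moDC did not pass (log2 difference 0.52, adjusted p = 0.058). It did without CD14lo cDC replicate 1 (0.044) or 2 (0.042), CD14hi moDC replicate 2 (0.029) or Ly6Chi moDC replicate 1 (0.038). The difference also passed with quantile normalization (0.034), with the replicate number as a block (0.015) and with only the 6 arrays compared (0.034).

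Pdcd1lg2, which encodes PD-L2, the other ligand of PD-1, declined further from CD103+ cDC. Its arrays had 1620, 1182 and 1293 in CD103+ cDC and 748, 688 and 454 in CD14lo cDC. They had 456, 413 and 340 in CD14hi moDC and 426, 203 and 217 in Ly6Chi moDC. CD103+ cDC again lay above all others, and each later neighbour in the order overlapped with the next. The gene was 2.10-fold higher in CD103+ cDC than in CD14lo cDC (log2 difference 1.07 ± 0.24, adjusted p = 0.0020), 3.11-fold higher than in CD14hi moDC (adjusted p = 2.2e-05) and 4.41-fold higher than in Ly6Chi moDC (adjusted p = 5.1e-07). CD14lo cDC were 2.10-fold above Ly6Chi moDC (adjusted p = 0.0022). The steps from CD14lo cDC to CD14hi moDC (log2 difference 0.57, adjusted p = 0.13) and on to Ly6Chi moDC (0.50, adjusted p = 0.16) did not pass. The former passed with the replicate number as a block (0.57, adjusted p = 0.048) and the latter without Ly6Chi moDC replicate 1 (0.79, adjusted p = 0.022).

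Btla, the gene of the inhibitory receptor BTLA, was the member called in all 6 comparisons. Its arrays had 9284, 7955 and 7126 in CD103+ cDC and 3620, 3521 and 3335 in CD14lo cDC. They had 1294, 982 and 1540 in CD14hi moDC and 467, 310 and 439 in Ly6Chi moDC. No pair of populations overlapped. On the log2 scale the steps were 1.20 ± 0.17 from CD103+ cDC to CD14lo cDC (adjusted p = 3.6e-05), 1.44 ± 0.17 to CD14hi moDC (adjusted p = 8.5e-06) and 1.53 ± 0.17 to Ly6Chi moDC (adjusted p = 3.4e-06). From end to end Btla differed by 18.1-fold. All 6 calls held in every alternative fitted, including each fit without 1 array.

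Cd200, which encodes the ligand of the inhibitory receptor CD200R, was low in Ly6Chi moDC alone. Its arrays had 5335, 4361 and 5763 in CD103+ cDC and 2288, 2074 and 1625 in CD14lo cDC. They had 2408, 1556 and 2379 in CD14hi moDC but 137, 80.1 and 47.8 in Ly6Chi moDC, where the array medians were between 72.4 and 87.7. Ly6Chi moDC were lower than CD103+ cDC by 38.7-fold (log2 difference 5.28 ± 0.22, adjusted p = 1.2e-12), than CD14lo cDC by 15.2-fold (adjusted p = 3.2e-10) and than CD14hi moDC by 15.9-fold (adjusted p = 4.8e-10). Because a pseudocount of 50.0003 was added before taking log2, the size of a fold against such dim signals depends on it. For CD103+ cDC against Ly6Chi moDC the log2 difference was 5.81 with a pseudocount of 2% of the trimmed mean and 4.82 with 20%. CD103+ cDC were 2.55-fold above CD14lo cDC (adjusted p = 0.00013) and 2.43-fold above CD14hi moDC (adjusted p = 0.00015). CD14lo cDC and CD14hi moDC did not differ beyond their spread (log2 difference -0.07, adjusted p = 0.89, 95% interval -0.54 to 0.40). In sorted bulk cells a smaller share of Cd200-expressing cells and less message per cell cannot be told apart.

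Fscn1, which encodes fascin, was also far lower in Ly6Chi moDC. Its arrays had 18683, 20353 and 22896 in CD103+ cDC and 12432, 12468 and 12519 in CD14lo cDC. They had 13275, 13121 and 14052 in CD14hi moDC and 1206, 412 and 1829 in Ly6Chi moDC. The Ly6Chi moDC arrays did not overlap with the rest. Fscn1 was lower there than in CD103+ cDC by 20-fold (log2 difference 4.32 ± 0.31, adjusted p = 1.1e-09), than in CD14lo cDC by 12.2-fold (adjusted p = 5e-08) and than in CD14hi moDC by 13.1-fold (adjusted p = 5.9e-08). The other 3 probe sets gave log2 differences of 6.07, 4.09 and 5.92 between CD103+ cDC and Ly6Chi moDC, and Ly6Chi moDC means of 157, 48.9 and 313 against 1149 for the brightest. Between CD103+ cDC and CD14lo cDC the brightest probe set missed the threshold although its arrays did not overlap (log2 difference 0.72 ± 0.31, adjusted p = 0.088), and the same held for CD14hi moDC (0.61, adjusted p = 0.13). The spread shared by all 12 arrays entered these tests. Without Ly6Chi moDC replicate 2, the lowest of its 3 arrays, the adjusted p were 0.00072 and 0.0020, and without replicate 3 they were 0.028 and 0.049. With only the 6 arrays compared they were 0.00036 and 0.0035. Each of the other probe sets was called in both comparisons, with log2 differences from 0.87 to 1.45 against CD14lo cDC and from 0.83 to 1.36 against CD14hi moDC.

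**Figure D2:**
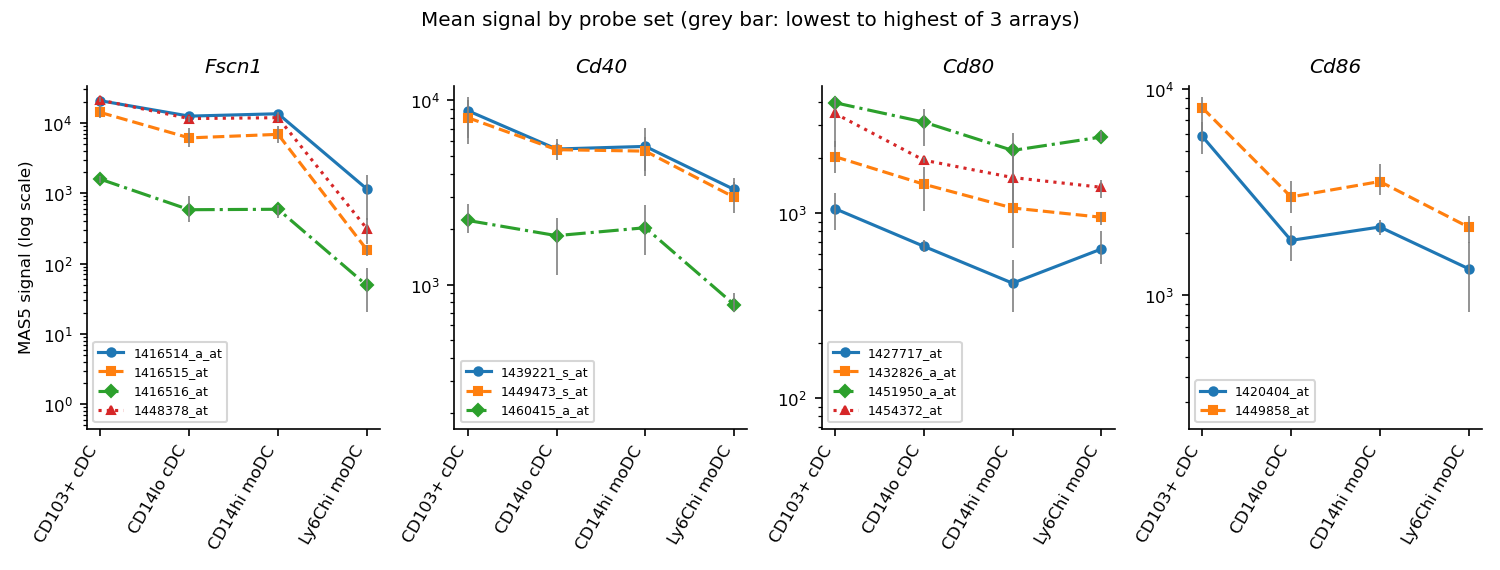
Mean MAS5 signal (log scale, its own range in each panel) of every probe set of Fscn1, Cd40, Cd80 and Cd86 in the 4 populations, with grey bars from the lowest to the highest of 3 arrays. The brightest Fscn1 probe set has a mean of 1149 in Ly6Chi moDC while the others have 157, 48.9 and 313, and the Cd80 probe sets differ in whether CD14hi moDC or Ly6Chi moDC is lowest.

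CD14lo cDC and CD14hi moDC, which the sort parted by CD14 and the labels assign to different lineages, differed past the threshold in Btla only. Apart from Btla, the intervals of the difference reached at most 1.06 on the log2 scale on the CD14lo side (Pdcd1lg2, 0.07 to 1.06) and -0.75 on the CD14hi side (Fscn1, -0.75 to 0.53). Again apart from Btla, the narrowest intervals were those of Icosl (0.08 to 0.61) and Cd86 (-0.62 to 0.13). The intervals are not adjusted for the number of genes tested. Those of Cd80 (0.12 to 0.89), Pdcd1lg2 and Icosl lay wholly on the CD14lo side, although these genes were not called. The signs of Cd40, Cd83, Cd200 and Fscn1 in this comparison, none of them called, turned under quantile normalization or median centring. That of Cd274 turned without CD14lo cDC replicate 1 (-0.03) or CD14hi moDC replicate 2 (-0.02). The arrays did not overlap for Icosl, Btla and Fscn1, 3 of the 10, as for 32.5% of all genes. In CD103+ cDC 7 members were called higher than in each other population (Cd40, Cd86, Cd83, Cd200, Cd274, Pdcd1lg2 and Btla), against 9.47% of all genes, and these comparisons share the CD103+ cDC arrays. In Ly6Chi moDC 6 were called lower than in each other population (Cd40, Cd83, Cd200, Icosl, Btla and Fscn1), against 6.52%.

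**Figure D3:**
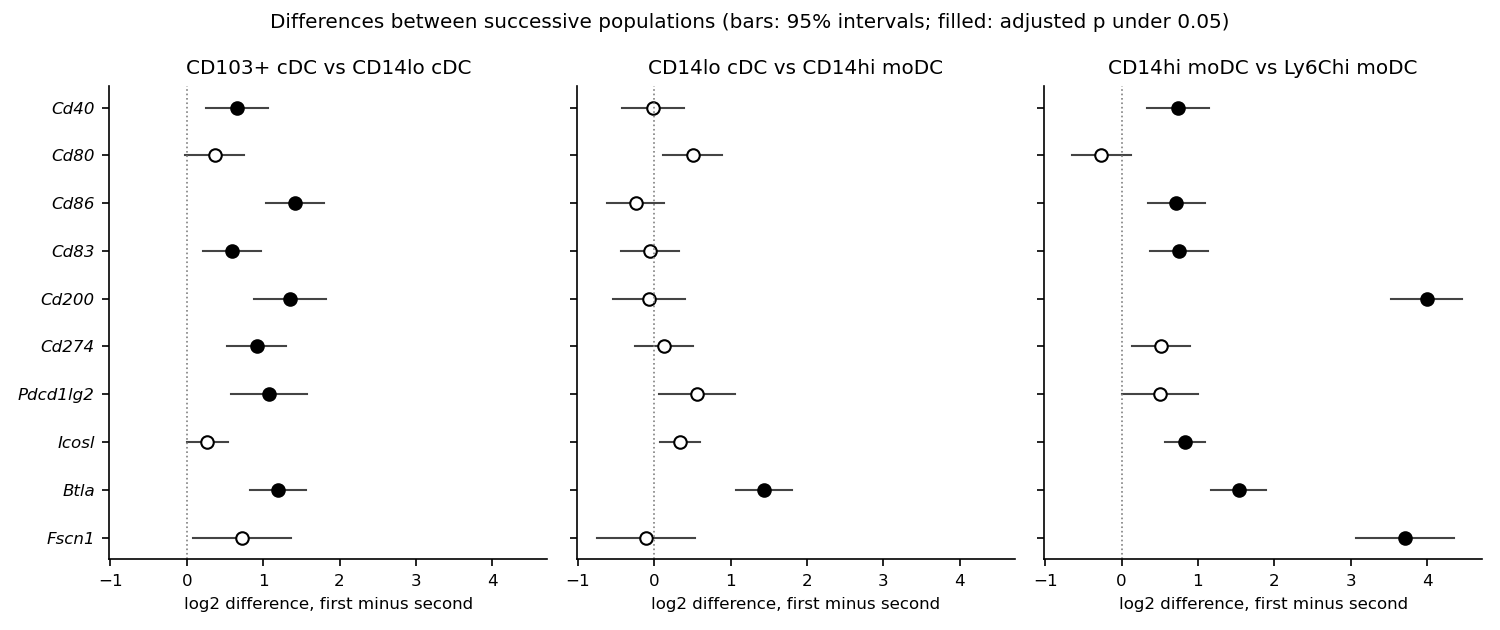
Log2 difference of each gene between successive populations, first minus second, with 95% intervals of the limma fit and filled points where the adjusted p was under 0.05. The middle comparison has 1 filled point, Btla at 1.44, and Cd200 and Fscn1 stand at 3.99 and 3.72 in the last.

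The populations were checked by markers. Mean Itgae, which encodes CD103, was 15178, 855, 140 and 86.5 over the populations, and mean Cd14 was 968, 1537, 11669 and 10836. Ly6c1 and Ly6c2 had no probe set with a single symbol, so the Ly6C gate was not checked. The 12 DC markers on the array summed to 72022 to 82578 in CD103+ cDC, 55277 to 61244 in CD14lo cDC, 43729 to 60920 in CD14hi moDC and 36016 to 42183 in Ly6Chi moDC. Itgae is part of this sum, and its members differed in order. Itgae, Flt3, Zbtb46, Xcr1, Batf3 and Dpp4 fell from CD103+ cDC to Ly6Chi moDC. Sirpa (245, 7260, 9856 and 9922), Cd209a (264, 6874, 2106 and 536) and Itgax (5266, 8640, 9028 and 7989) were lowest in CD103+ cDC. Across genes, arrays of the same population correlated at 0.973 to 0.983. Other cells that carry these proteins were looked for. The 7 B cell markers on the array, 4 of which passed the filter, summed to 467 to 594 in CD103+ cDC and to between 618 and 1641 elsewhere. Their members differed in order: Cd22 had means of 104, 654, 342 and 230 and Cd79b of 21.7, 221, 260 and 302. Ms4a1, which encodes CD20, had 145, 92.0, 46.2 and 39.3. It was thus highest in CD103+ cDC and lowest in Ly6Chi moDC, as were 9 of the 10 genes. The 9 T cell markers, 2 of which passed, summed to 515 to 748, 490 to 671, 722 to 979 and 353 to 467. Of the 2 that passed, Icos had means of 217, 141, 69.7 and 37.0, also falling from CD103+ cDC to Ly6Chi moDC, and Cd2 had 115, 212, 600 and 152. Cd3d, Cd3e and Cd3g did not pass and had means of at most 76.6, which was that of Cd3e in CD103+ cDC. The 5 plasmacytoid DC markers, all of which passed, summed to 3010 to 4160, 3336 to 5289, 5451 to 5513 and 6180 to 7015, a sum led by Bst2 (means 2710, 3585, 4931 and 6064). Of these markers 3 likewise fell from CD103+ cDC to Ly6Chi moDC: Siglech had 344, 116, 85.7 and 82.5, Ccr9 220, 94.1, 79.2 and 52.3, and Pacsin1 225, 58.2, 56.7 and 11.2. Lung epithelium markers were also highest in CD103+ cDC, but they differed in order elsewhere. Scgb1a1 and Krt8 fell in the order of the populations. Sftpc (928, 151, 355 and 195), Sftpb (241, 84.2, 148 and 94.9) and Krt18 were lowest in CD14lo cDC. The 6 on the array, 4 of which passed, summed to 4416 to 8526 in CD103+ cDC, against 1592 to 4141, 2511 to 3445 and 1823 to 2704 in the others, and Scgb1a1, a club cell gene, gave most of it (means 4857, 2659, 2359 and 1964). The 4 neutrophil markers on the array were highest in Ly6Chi moDC, at 3860 to 4159 against 250 to 2053 elsewhere. The 9 monocyte and macrophage markers, Cd14 among them, summed to 6245 to 7218, 24727.5 to 27671, 59810.5 to 71071 and 64321 to 68439. The 6 of alveolar macrophages summed to 1472 to 4863, 3031 to 10584, 3829 to 7377 and 6683 to 8775. Chil3 gave most of that sum in Ly6Chi moDC (means 1502, 1642, 929 and 6685). Marco, Fabp4, Car4 and Siglecf were lowest in Ly6Chi moDC, and Pparg was lowest in CD103+ cDC. Fibroblast markers summed to 1657 to 2149, 1387 to 1778, 4660 to 5503 and 2806 to 4449. Endothelium markers had 749 to 936, 928 to 1395, 474 to 806 and 652 to 1246. The 5 NK cell markers on the array had 835 to 930, 1069 to 1493, 982 to 1048 and 1016 to 1262. Only 1 of them passed the filter, Prf1, which gave most of the sum (means 811, 1159, 962 and 1041). The part of the T cell, B cell, plasmacytoid DC, epithelial, neutrophil and other markers in the differences was not tested.

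Genes on the path from CD40 to the noncanonical NF-kappaB pathway ran in the same direction as the 10 genes. Of 9 tested from a list of 10, 9 were higher in CD103+ cDC than in Ly6Chi moDC, 8 than in CD14hi moDC and 7 than in CD14lo cDC, with medians of 1.31, 1.10 and 0.65 on the log2 scale. Among all genes, 23.2%, 16.9% and 13.4% were called higher in these pairs. Map3k14, the kinase NIK, was 8.12-fold higher in CD103+ cDC than in Ly6Chi moDC (means 5733 and 663, adjusted p = 2.4e-12). Birc2, the gene of the ubiquitin ligase cIAP1, was 6.35-fold higher (6895 and 1064, adjusted p = 2.9e-10). Relb, the NF-kappaB subunit of this pathway, was 6.31-fold higher (5652 and 841, adjusted p = 2.2e-09), and the adaptor gene Traf1 5.20-fold higher (14206 and 2804, adjusted p = 3.2e-07). Between CD14lo cDC and CD14hi moDC, Map3k14 alone of the 9 was called (1.83-fold higher in CD14lo cDC, adjusted p = 0.00013), while Relb had 3081 against 2402 (adjusted p = 0.29). Among all genes, 6.95% were called higher in CD14lo cDC there and 16.2% either way. No called gene of this list turned its direction under either other scaling.

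Most genes of DC maturation and migration were lower in Ly6Chi moDC than in the other populations. Of 16 tested from a list of 20, all 16 were higher in CD103+ cDC than in Ly6Chi moDC, and 15 were higher than there in CD14lo cDC and 15 in CD14hi moDC. Among all genes, 23.2%, 14% and 11.4% were called higher in these pairs. The medians of the list were 3.46, 2.39 and 2.27 on the log2 scale. Il12b, a subunit gene of interleukin 12, had means of 6751, 647, 1176 and 46.3 over the populations (adjusted p = 3.4e-11 between CD103+ cDC and Ly6Chi moDC). Tnfrsf9, which encodes the costimulatory receptor 4-1BB, had means of 3257, 727, 921 and 24.8. Both lay below the array medians in Ly6Chi moDC, so no fold is given against that population. Ccl22, a chemokine gene of mature DC, had means of 23241, 12614, 17302 and 670 from CD103+ cDC to Ly6Chi moDC. Aldh1a2, which encodes a retinoic acid synthesising enzyme, had 5042 in CD14hi moDC, 3070 in CD14lo cDC and 130 in Ly6Chi moDC, and was called higher in CD14hi moDC than in CD14lo cDC (log2 difference -0.72 for CD14lo minus CD14hi, adjusted p = 0.0019). Tnfrsf4, which encodes the costimulatory receptor OX40, had 551 in CD14lo cDC against 176 in CD14hi moDC (2.67-fold higher, adjusted p = 2.9e-05). Between these populations 2 of 16 were called higher in CD14lo cDC and 1 lower, where 6.95% of all genes were called higher and 16.2% either way. CD103+ cDC exceeded CD14hi moDC in 13 of 16, where 16.9% of all genes were called higher. Ccl17 (adjusted p = 0.29), Ccl22 (0.17) and Aldh1a2 (log2 difference -0.17, adjusted p = 0.4) were not called there. CD103+ cDC exceeded CD14lo cDC in 15 of 16, where 13.4% of all genes were called higher. With quantile normalization they did so in 12, and the calls of Ccr7, Ccl17 and Ccl22 were lost.

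A list of 10 other B7, butyrophilin and nectin family ligands and related co-signalling genes could be tested for 6, and none of its 3 butyrophilins was among them. Of the 6, 4 were lower in CD103+ cDC than in Ly6Chi moDC and 1 higher, with a median log2 difference of -0.98. Of all 10929 genes, 2658 were called lower and 2534 higher in that pair. Cd276, which encodes the B7-H3 protein, had means of 27.7, 142, 478 and 681 over the populations (adjusted p = 1.5e-10 between CD103+ cDC and Ly6Chi moDC), and its CD103+ cDC level lay below the array medians there, so no fold is given. Lgals9, the gene of galectin 9, a ligand of the inhibitory receptor TIM-3, had 680, 2051, 2573 and 4365 in the same order (log2 difference -2.61 ± 0.17, adjusted p = 2.6e-10). Vsir, the gene of the inhibitory B7 family protein VISTA, had 846, 1211, 1518 and 2005 (log2 difference -1.20 ± 0.14, adjusted p = 1.1e-06). Tnfrsf14, which encodes HVEM, the partner of BTLA, was lower in CD14hi moDC than in Ly6Chi moDC (434 against 841, adjusted p = 0.0033) and higher in CD103+ cDC than in CD14hi moDC (636 against 434, adjusted p = 0.047). Pvr, the gene of a ligand of DNAM-1 and TIGIT, was 2.19-fold higher in CD103+ cDC than in Ly6Chi moDC (adjusted p = 0.0024). No called gene of this list changed direction under either other scaling.

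Of the TNF superfamily costimulatory ligands 4 of 7 could be tested. Cd70, the ligand of CD27, had means of 572, 208, 171 and 16.7 from CD103+ cDC to Ly6Chi moDC, and was higher in CD103+ cDC than in Ly6Chi moDC (adjusted p = 1.6e-07). Tnfsf14, which encodes LIGHT, another partner of HVEM, was lower in CD103+ cDC, at 23.3 against 282 in Ly6Chi moDC (adjusted p = 2e-06). The lower value of each of these genes lay below the array medians, so no fold is given. Tnfsf9, the ligand of 4-1BB, was higher in CD103+ cDC (5671 against 2953, adjusted p = 0.026) and in CD14lo cDC (6026, adjusted p = 0.019) than in Ly6Chi moDC, calls lost with median centring. None of the 4 was called between CD14lo cDC and CD14hi moDC, where 16.2% of all genes were called.

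**Figure D4:**
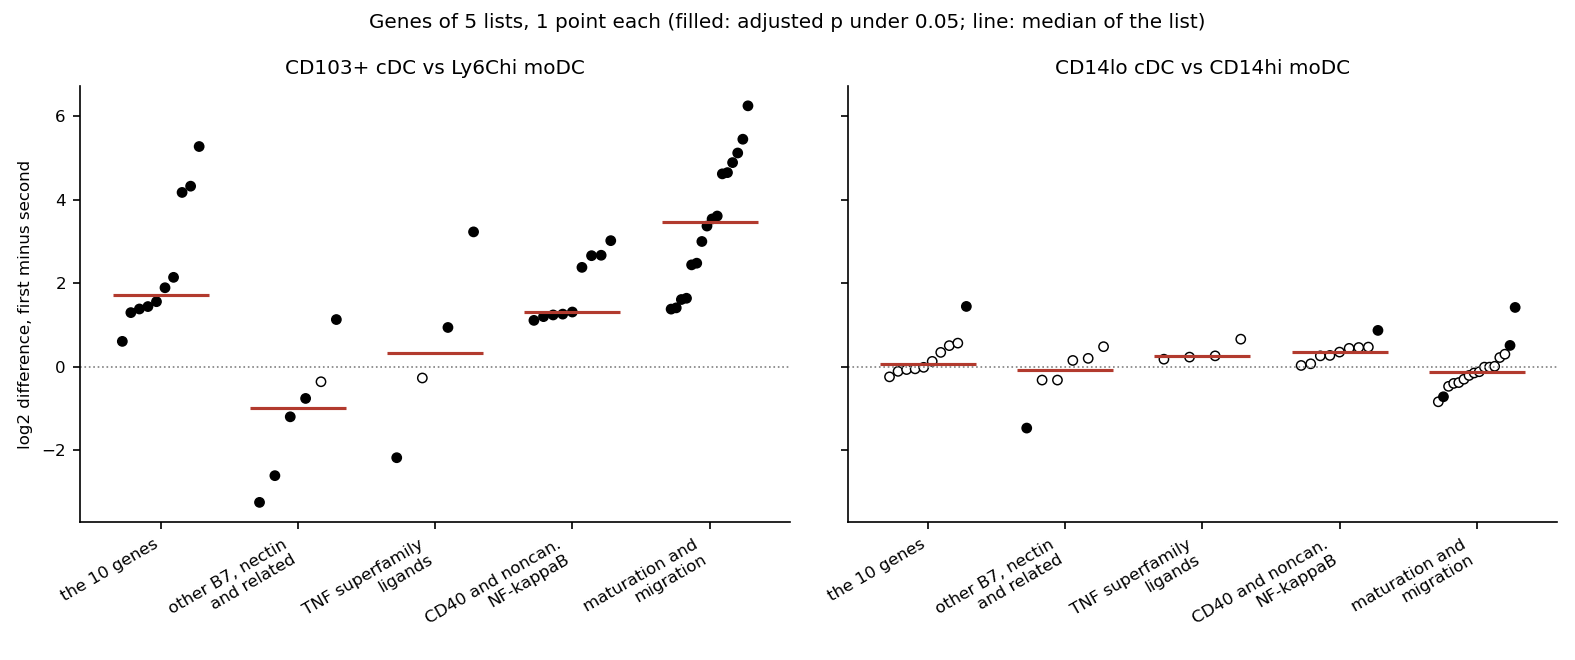
Log2 difference, first minus second population, of each tested gene of the 10 and of 4 other lists (1 point per gene, filled where the adjusted p was under 0.05, line at the list's median). For CD103+ cDC against Ly6Chi moDC the medians are 1.73 for the 10 genes, -0.98 for other B7, nectin and related genes, 1.31 for the CD40 path and 3.46 for maturation and migration, and for CD14lo cDC against CD14hi moDC they are 0.06, -0.09, 0.35 and -0.14. Those of the TNF superfamily ligands are 0.34 and 0.25.

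The genes most like each member were ranked by Pearson correlation of log2 signal over the 12 arrays, a description in which the points share 4 populations, so that it mostly follows the population means. Fscn1 was most like Ccr7, the lymph node homing receptor gene (0.991), and Cd200 most like Lad1 (0.995), whose means ran 2731, 1237, 1181 and 47.8 from CD103+ cDC to Ly6Chi moDC. Btla was most like P2ry10 (0.991) and the growth factor receptor gene Flt3 (0.990). Cd40 and Cd83 both had Icam1, an adhesion gene, among their 3 nearest (0.969 and 0.965), and Cd86 was nearest to Nudt9 (0.983). Icosl was nearest to Cnn2 (0.980), Cd274 to Sec14l2 (0.973), Pdcd1lg2 to Tes (0.964) and Cd80 to Grasp (0.934). Among the members themselves the correlation was highest for Cd40 with Cd83, Cd200 with Fscn1 and Cd200 with Icosl (0.95 each), and lowest for Cd80 with Fscn1 (0.31). After each population's mean had been removed, the highest correlation over the 12 arrays was that of Cd86 with Cd83 (0.92) and the lowest that of Fscn1 with Icosl (-0.68).

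Position in the genome was shared by 4 members. In the RefSeq order of protein-coding genes Btla and Cd200 are neighbours on chromosome 16, which also holds Cd80 and Cd86, and Cd274 and Pdcd1lg2 are neighbours on chromosome 19. From CD14lo cDC to CD14hi moDC the Btla signal went from 3492 ± 145 to 1272 ± 280 and that of Cd200 from 1996 ± 339 to 2114 ± 484 (SD, n = 3). Cd274 went from 2604 ± 584 to 2365 ± 414 and Pdcd1lg2 from 630 ± 156 to 403 ± 58.5 (SD, n = 3). Whether neighbours differed in their change was not tested.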

How the data were processed

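Affymetrix mouse genome arrays were read for 12 samples, 3 per population. The deposited values are linear intensity values that the authors made with MAS5, per the submitters' processing notes. With 2% trimmed from each end, the arrays had a mean of 500.003. The MAS5 version and scaling target are not stated in the labels or the notes. The scale is relative to each array's total, so a shift shared by most genes cannot be seen.

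The tables hold 45101 probe sets, among them 64 controls that were not tested. Signals above the array's median in at least 3 arrays were required (25138 probe sets). The kept probe set of highest mean stood for each gene with a single annotated symbol (10929 genes, of which 10885 matched RefSeq by gene ID). A pseudocount of 50.0003, 10% of the trimmed mean, was added before log2. All 12 arrays entered 1 model with 4 population means (limma 3.58.1, lmFit and eBayes with intensity trend, 8 residual degrees of freedom, R 4.3.3). Tests were two-sided, with Benjamini-Hochberg adjustment over all genes in each of 6 comparisons. The code was tested on simulated data.

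The members, lists and tests were chosen with earlier results of these data known. The named genes were the 10 members, the 3 most correlated genes of each, and up to 4 called members of each pathway list with the largest differences. Those differences were ranked in CD103+ cDC against Ly6Chi moDC. Tnfrsf14, Tnfrsf4, Aldh1a2, Ccl17 and the marker genes are named after their values were seen. The alternatives were 2 other scalings, pseudocounts of 2% and 20% of the trimmed mean, no filter and a filter at the 75th percentile, the mean of probe sets, each other probe set, only the arrays compared, no trend, a replicate block and each array left out in turn. Added after seeing the data were CD103+ cDC replicate 2 alone and the Gapdh ratio as a covariate. Figures were drawn with matplotlib 3.10.9.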

Additional observations from a re-analysis of the deposited data

How the results depend on the processing

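Of the 10 genes, the number called kept within 1.5 times its value in every alternative, apart from 1 named below, for CD103+ cDC against CD14lo cDC, CD14hi moDC and Ly6Chi moDC. Between CD14lo cDC and CD14hi moDC it was 2 with quantile normalization and with median centring, and 3 with the replicate block, in place of 1. With median centring it was 5 in place of 8 for CD14lo cDC and 4 in place of 7 for CD14hi moDC against Ly6Chi moDC. Leaving out each array in turn gave 5 to 8 for CD103+ cDC against CD14lo cDC, 7 to 10 against CD14hi moDC and 10 against Ly6Chi moDC. It gave 1 to 2 between CD14lo cDC and CD14hi moDC, with 2 without CD14lo cDC replicate 2 or CD14hi moDC replicate 3. It gave 7 to 9 and 5 to 8 for CD14lo cDC and CD14hi moDC against Ly6Chi moDC. An alternative chosen after seeing the data, CD103+ cDC replicate 2 alone in its population, gave 3 in place of 7 against CD14lo cDC; that lone array is assumed to vary like the other groups. No call among the 10 genes reversed.

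The labels do not say whether equal replicate numbers share mice. Deviations from population means correlated above 0.1 for 8 of 18 same-numbered pairs (-0.11 to 0.24), and 9 of 18 matched their own number best, so the replicate block is only an alternative. Under the block Cd80 (adjusted p = 0.031) and Pdcd1lg2 (0.048) passed between CD14lo cDC and CD14hi moDC, Cd86 (0.017) between CD14lo cDC and Ly6Chi moDC, and Cd274 (0.015) between CD14hi moDC and Ly6Chi moDC, and no called member was lost.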
